A study of Mus musculus with 26 samples.

Results

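The 21 liver libraries from mice on a choline-deficient, amino-acid-defined, high-fat diet (CDAHFD) carry library numbers of 2 kinds, and the libraries of one kind were compared with those of the other. Names of 4 digits, from 9929 to 9993, formed the 9000 series (8 libraries). Names of 5 digits, from 11001 to 11143, formed the 11000 series (13 libraries). The comparison used 21 of the 26 libraries of the study. The labels do not say what the numbers stand for, and the series are called by their numbers only.

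The study profiled liver RNA of wildtype mice and of mice with a heterozygous or homozygous knockout of Mtarc1, which encodes a molybdenum-containing enzyme of the outer mitochondrial membrane. All 21 libraries came from mice on CDAHFD, and the labels give 2 weeks of this diet before RNA extraction. The 9000 series held 3 wildtype, 3 Mtarc1 heterozygous knockout and 2 Mtarc1 homozygous knockout libraries, and the 11000 series held 3, 4 and 6. Another 5 libraries came from wildtype mice on control chow, of which 1 had a number of the 9000 series (9927) and 4 had numbers of the 11000 series. The labels give no sex, age or strain, and they do not say which libraries came from separate animals. The p-values below therefore measure the spread between these libraries.

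CDAHFD withholds choline, which hepatocytes need to make the phosphatidylcholine of very-low-density lipoprotein, so that fat stays in the liver and inflammation and scarring follow. Mouse liver RNA also follows conditions that a diet study does not set. The pulses of growth hormone set the genes of male and female liver, the acute-phase genes answer to infection or injury, heat shock genes answer to temperature and protein damage, and a set of core and output genes follows the time of day.

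Library size did not separate the series. Total counts, in units of 1000000 counts, were 25.65 ± 1.96 (SD, n = 8) in the 9000 series and 25.16 ± 2.99 (SD, n = 13) in the 11000 series, with an exact permutation p of 0.860 (two-sided, labels permuted within genotype). The share of counts from the mitochondrial genome was 9.27% against 9.02% (exact permutation p = 0.807), and that of the 20 most abundant genes 24.52% against 24.19% (exact permutation p = 0.424). After Benjamini-Hochberg adjustment over the 4 library measures each of these had a p of 0.860. All 10 hepatocyte markers had a mean of at least 1 CPM (count per 1000000 counts of the library), and their summed level ranged from 62064 to 108430 CPM over the 21 libraries. The targeted gene was lowest in the homozygous libraries in both series. Over both series Mtarc1 lay between 192 and 291 CPM in wildtype, between 111.4 and 209 CPM in heterozygous and between 33.6 and 65.2 CPM in homozygous libraries. Wildtype and heterozygous libraries overlapped in the 9000 series, where the highest heterozygous one (209 CPM) lay above the lowest wildtype one (192 CPM).

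No gene was called between the 2 series with genotype as a covariate. edgeR's quasi-likelihood test called 0 of 17951 genes (0%) at an adjusted p under 0.05, and its lowest adjusted p was 0.186. An unadjusted p under 0.05 was reached by 978 genes (5.45%), 529 of them higher in the 9000 series (2.95%) and 449 lower (2.5%). At that threshold 897.55 genes pass on average when nothing differs. DESeq2 called 16 genes, 9 of them higher and 7 lower in the 9000 series, and limma voom called 0. The genes named below were therefore not called by the main test, and their values are given as measured.

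Most genes had near-equal levels in the 2 series, and the intervals were narrow enough to say so for large differences. Of 13885 genes with a mean of at least 1 CPM, the median absolute log2 difference was 0.07, where the median standard error was 0.11. The estimate passed 1.5-fold for 172 of these genes (1.24%) and 2-fold for 31 (0.223%). The 95% confidence interval of the difference lay wholly inside 2-fold in either direction for 97.1% of them, and wholly inside 1.5-fold for 85.9%. Distances between whole libraries were similar within and across series. Pairs of the same genotype lay at a median root-mean-square log2 distance of 0.420 within a series (31 pairs) and 0.416 across series (33 pairs). For pairs of different genotype the order was the other way, at 0.427 within a series (75 pairs) and 0.436 across series (71 pairs). The median residual spread of a gene was 0.215 on the log2 scale in the 9000 series and 0.227 in the 11000 series.

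**Figure D1:**
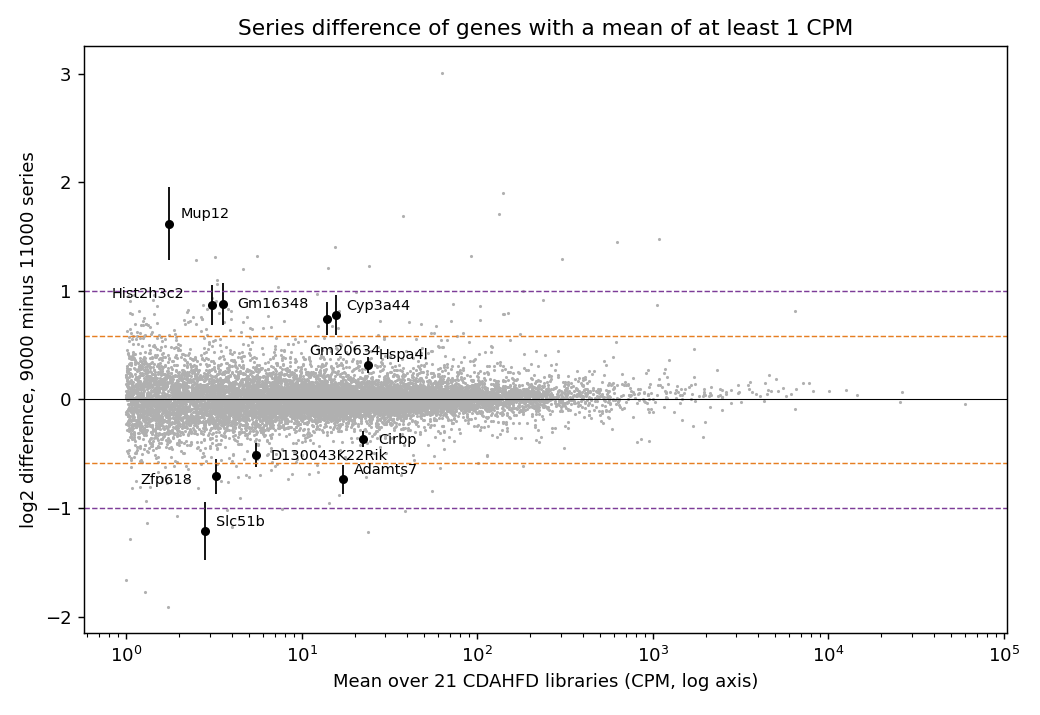
Log2 difference between the series (9000 minus 11000, genotype as covariate; vertical axis) against the mean CPM over the 21 CDAHFD libraries (log axis) for the 13885 genes with a mean of at least 1 CPM. Dashed lines mark 1.5-fold (orange) and 2-fold (purple). Black points with standard error bars are 11 of the 12 genes with the lowest p, the other one, Trpm6, being under 1 CPM. Most points lie close to 0, and 31 lie past 2-fold.

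The 12 genes with the lowest p were chosen after their values were seen. They were Mup12, Gm20634, Hist2h3c2, Gm16348, Hspa4l and Cyp3a44 on the higher side, and Adamts7, Trpm6, Cirbp, Slc51b, D130043K22Rik and Zfp618 on the lower side. DESeq2 called all 12. The other DESeq2 genes were Hsp90ab1, Mup13 and Gm44787 (higher) and the insulin receptor adaptor gene Grb14 (lower).

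Adamts7, which encodes a secreted metalloprotease of the extracellular matrix, had the lowest p. Its level in the 9000 series was 9.60, 11.96 and 12.9 CPM in wildtype, 10.03, 13.7 and 14.1 CPM in heterozygous and 9.79 and 15.96 CPM in homozygous libraries. In the 11000 series it was 30.3, 13.6 and 21.6 CPM in wildtype, 19.5, 22.8, 17.5 and 23.8 CPM in heterozygous, and 17.8, 18.4, 15.02, 23.7, 21.04 and 17.9 CPM in homozygous libraries. The 2 series did not overlap in wildtype or heterozygous livers (a pattern of 13.2% and 4.74% of all genes respectively), and in homozygous livers 1 library of the 11000 series lay under the higher of the 2 libraries of the 9000 series. The log2 difference was -0.73 ± 0.13 (SE; edgeR adjusted p = 0.186). Without wildtype CDAHFD sample 5, a library of the 11000 series, Adamts7 passed the test at -0.79 (edgeR adjusted p = 0.0480) and was the 1 gene called.

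Trpm6, which encodes a magnesium channel, was lower in the 9000 series in all 3 genotypes with no overlap. Its level ran from 0.248 to 0.427 CPM against 0.499 to 0.965 CPM in wildtype, from 0.307 to 0.502 CPM against 0.545 to 1.29 CPM in heterozygous, and from 0.386 to 0.453 CPM against 0.565 to 1.27 CPM in homozygous libraries. The log2 difference was -1.24 ± 0.23 (SE; edgeR adjusted p = 0.186). Only 4 of 17951 genes (0.0223%) showed no overlap in the same direction in each genotype. Beside Trpm6 these were Hist2h3c2, the neurotrophin gene Bdnf (log2 difference 0.62 ± 0.16, SE) and 1 gene without a symbol, all higher in the 9000 series. Across genotypes 0 genes (0%) had all 8 libraries of the 9000 series on one side of all 13 of the 11000 series.

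Slc51b, a subunit of the transporter that exports bile acids across the basolateral membrane, had a lowest, median and highest level of 0.498, 1.69 and 2.14 CPM in the 9000 series and 1.46, 3.39 and 6.04 CPM in the 11000 series. Its log2 difference was -1.21 ± 0.27 (SE; edgeR adjusted p = 0.338), with -0.87 in wildtype, -0.90 in heterozygous and -2.12 in homozygous livers. The zinc finger gene Zfp618 had a log2 difference of -0.71 ± 0.16 (SE). The predicted genes Gm20634 and Gm16348 were higher, at 0.74 ± 0.16 and 0.88 ± 0.19 (SE), and D130043K22Rik was lower, at -0.51 ± 0.11 (SE). Without libraries 11001 and 11002, whose numbers stand apart from the rest of the 11000 series, Gm20634 and Mup12 passed the test (edgeR adjusted p = 0.0326 for both).

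**Figure D2:**
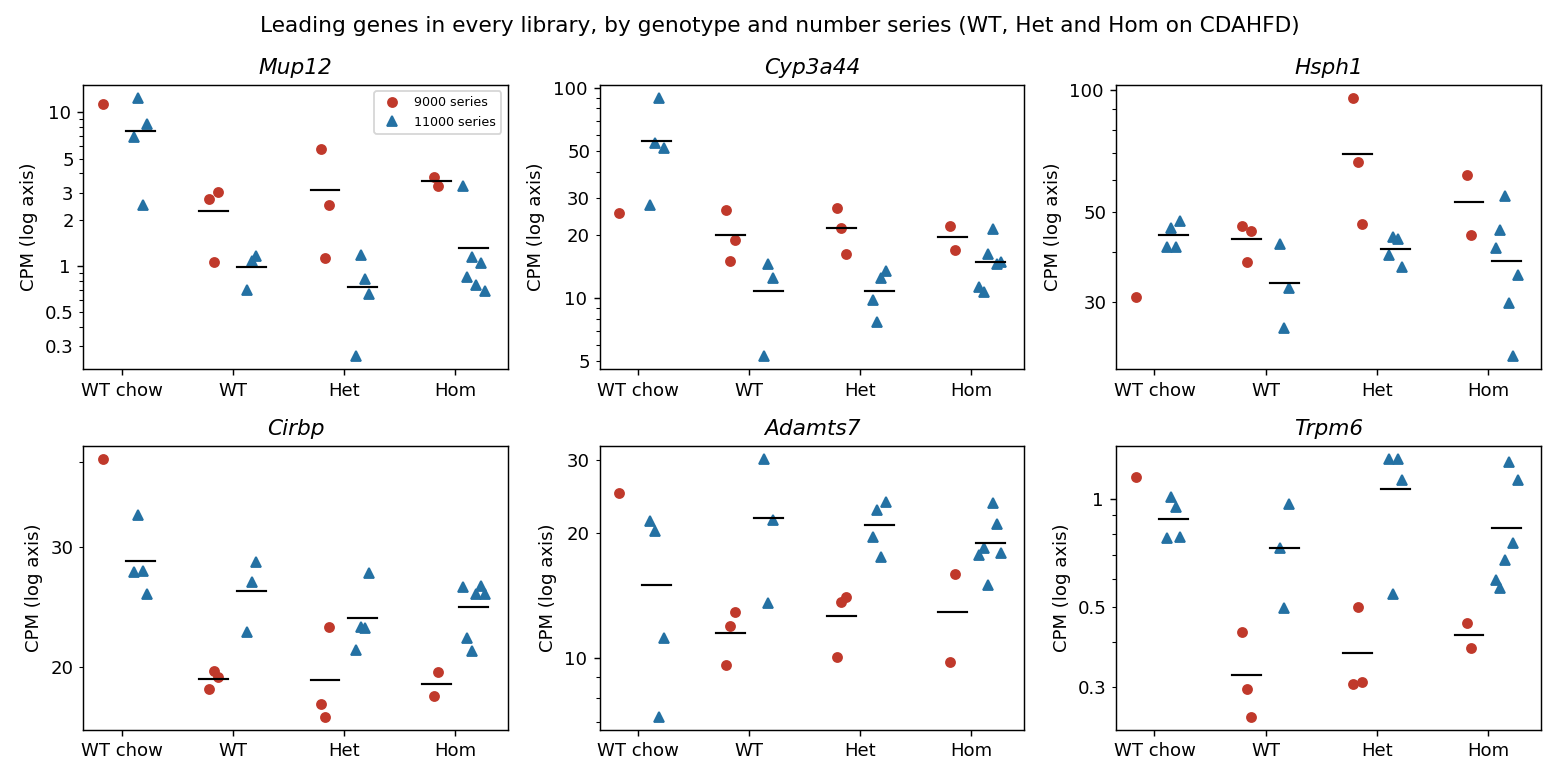
Level in CPM (log axes) of Mup12, Cyp3a44, Hsph1, Cirbp, Adamts7 and Trpm6 in each library, by genotype, with red circles for the 9000 series, blue triangles for the 11000 series and black lines for group means. Chow libraries stand on the left of each panel. Trpm6 shows no overlap between the series in any CDAHFD genotype, while Hsph1 overlaps in wildtype and homozygous livers.

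Genes under growth hormone and sex control lay above 0 more often than most genes. Of 36 tested members 29 had a higher estimate in the 9000 series, where 49.1% of all genes did, and their median log2 difference was 0.35. An unadjusted p under 0.05 was reached by 12 members on the higher side and 2 on the lower side, and 0 were called. Of all genes 2.95% and 2.5% did so. The 12 included Mup1, Mup3, Mup7, Mup10, Mup11, Mup12 and Mup21, near-identical copies of one family that share reads, so these members are not independent. The major urinary protein genes Mup3, Mup7 and Mup12, known as male-biased, had higher estimates in the 9000 series, and so had Cyp3a41a, Cyp3a44 and Cux2, known as female-biased. Cux2 was at 1.69 ± 0.63 (SE; edgeR adjusted p = 0.772). It ran from 2.41 to 128 CPM in the 9000 series and from 2.75 to 51.1 CPM in the other series. The ranges thus overlapped, and the lowest Cux2 value belonged to a wildtype library of the 9000 series. Bcl6, a repressor known as male-biased in liver, was lower (-0.88 ± 0.30, SE), as was Igfbp3, which carries insulin-like growth factors (-0.24 ± 0.09, SE). Cish, a feedback gene of growth hormone signalling, was at 0.60 ± 0.26 (SE).

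Mup12 had the lowest p of this list. In wildtype it was at 2.73, 1.05 and 3.05 CPM in the 9000 series and 0.693, 1.08 and 1.17 CPM in the 11000 series. Heterozygous libraries held 5.78, 1.12 and 2.48 CPM against 0.258, 1.17, 0.817 and 0.650 CPM. In homozygous libraries it was at 3.81 and 3.32 CPM against 3.34, 0.847, 1.15, 0.753, 1.05 and 0.688 CPM, and the 3.34 CPM belonged to library 11001. The series overlapped in each genotype, and the log2 difference was 1.62 ± 0.33 (SE; edgeR adjusted p = 0.276).

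The wider family of major urinary proteins, pheromone carriers that the liver secretes, was looked at after these values were seen. Of 19 tested Mup genes 18 were higher in the 9000 series and the same number had an unadjusted p under 0.05, with a median log2 difference of 0.99. The exception was Mup20 (-0.13 ± 0.52, SE). The family made up 8 of the 19 genes that were more than 2-fold higher, among them Mup17 (1.90 ± 0.51, SE), Mup15 (1.70 ± 0.53, SE) and Mup19 (1.48 ± 0.54, SE). Mup genes are near-identical copies that share reads, so the 19 values are not independent and the split between copies is uncertain. The sum over the family does not depend on that split. It took 1.10%, 1.15% and 1.42% of counts in wildtype livers of the 9000 series and 0.476%, 1.24% and 1.16% in those of the 11000 series, which overlap. In heterozygous livers it took 2.09%, 1.29% and 1.65% against 0.893%, 1.02%, 0.811% and 0.604%, with no overlap, a pattern of 4.74% of single genes. In homozygous livers it took 2.31% and 1.70% against 2.10%, 0.851%, 1.06%, 0.806%, 1.28% and 0.516%, which overlap through library 11001. All 21 lay under the share in 4 of the 5 chow livers (2.70% to 3.91%), the other chow liver having 1.62%.

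Cyp3a41a and Cyp3a44 encode steroid- and drug-oxidising cytochromes. Cyp3a41a had a lowest, median and highest level of 391, 1048 and 1741 CPM in the 9000 series and 75.2, 318 and 828 CPM in the 11000 series, so that the ranges overlapped. Its log2 difference was 1.45 ± 0.36 (SE; edgeR adjusted p = 0.567). Cyp3a44 was at 26.3, 14.98 and 18.9 CPM against 5.31, 14.5 and 12.5 CPM in wildtype and at 26.9, 21.5 and 16.2 CPM against 9.76, 7.67, 12.5 and 13.4 CPM in heterozygous livers. It overlapped in neither, a pattern of 13.2% of all genes in wildtype and 4.74% in heterozygous livers. In homozygous livers, of its 22.2 and 16.9 CPM the first lay above the 11000 series (10.7 to 21.4 CPM) and the other within it. Its log2 difference was 0.78 ± 0.18 (SE; edgeR adjusted p = 0.446). The 2 genes are close copies, and their promoters show how close. The 250 bases before the RefSeq start of Cyp3a41a (GRCm38.p6, chr5:145720137-145720386, minus strand) and of Cyp3a44 (chr5:145805875-145806124, minus strand) were identical at 236 positions (94.4%) without gaps. Capitals mark the 14 positions that differ.
Cyp3a41a: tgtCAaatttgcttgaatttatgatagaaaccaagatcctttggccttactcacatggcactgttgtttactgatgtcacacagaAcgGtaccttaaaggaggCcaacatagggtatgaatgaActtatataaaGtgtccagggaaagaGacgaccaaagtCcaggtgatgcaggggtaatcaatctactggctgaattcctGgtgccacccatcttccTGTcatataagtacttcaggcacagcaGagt
Cyp3a44: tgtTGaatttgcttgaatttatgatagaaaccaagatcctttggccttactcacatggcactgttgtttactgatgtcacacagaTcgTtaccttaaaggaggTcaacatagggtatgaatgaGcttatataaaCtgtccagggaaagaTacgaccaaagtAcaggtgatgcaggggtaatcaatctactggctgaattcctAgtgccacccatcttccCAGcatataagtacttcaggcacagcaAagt

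Heat shock genes lay above 0 in most members. Of 14 tested chaperone and heat shock genes 13 had a higher estimate in the 9000 series, 7 of them at an unadjusted p under 0.05, where 2.95% of all genes were on that side, and 0 were called. The list's median log2 difference was 0.21, with 0.17 in wildtype, 0.32 in heterozygous and 0.12 in homozygous livers. Hsf1, the transcription factor of the heat shock response, was the 1 member below 0 (-0.01 ± 0.09, SE).

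Hsph1, a large chaperone of the Hsp110 family, had the lowest p of the list. It was at 46.4, 37.8 and 45.03 CPM against 41.8, 25.9 and 32.6 CPM in wildtype, at 95.8, 66.8 and 46.9 CPM against 39.4, 43.4, 42.9 and 36.6 CPM in heterozygous, and at 61.8 and 44.1 CPM against 40.9, 45.4, 55.01, 29.96, 22.1 and 35.02 CPM in homozygous livers. The heterozygous groups did not overlap, a pattern of 4.74% of all genes, and the others did. Its log2 difference was 0.55 ± 0.15 (SE; edgeR adjusted p = 0.609). The cytosolic chaperone genes Hsp90aa1 and Hspa8 were at 0.44 ± 0.14 and 0.37 ± 0.14 (SE), the small heat shock protein gene Hspb1 at 0.44 ± 0.15 (SE) and the inducible Hspa1a at 0.64 ± 0.25 (SE). Another 2 chaperone genes outside the list were chosen after their values were seen. Hspa4l lay between 24.7 and 31.3 CPM in the 9000 series and between 16.9 and 29.3 CPM in the 11000 series (0.32 ± 0.07, SE; edgeR adjusted p = 0.340). Hsp90ab1 lay between 903 and 1204 CPM against 774 and 928 CPM (0.25 ± 0.07, SE).

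Cirbp, an RNA-binding protein gene that is known to be induced by mild cold and to fall with heat, was lower in the 9000 series. It was at 18.5, 19.7 and 19.3 CPM against 22.5, 26.6 and 28.5 CPM in wildtype, at 17.6, 16.9 and 22.9 CPM against 21.2, 22.9, 22.8 and 27.4 CPM in heterozygous, and at 18.1 and 19.7 CPM against 26.2, 22.1, 21.1, 25.6, 26.3 and 25.6 CPM in homozygous livers. The groups did not overlap in wildtype and homozygous livers, a pattern of 13.2% and 4.5% of all genes. The log2 difference was -0.36 ± 0.07 (SE; edgeR adjusted p = 0.276). In chow livers the order was the other way, with 40.5 CPM in the 9000 series library against 25.6 to 33.4 CPM in the 4 others.

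Promoters of heat shock genes carry inverted repeats of the unit that heat shock factors bind, and the promoters of 2 list members are shown for that reason. The words searched were GAANNTTC and TTCNNGAA, each of which reads the same on both strands. In the 250 bases before the start, 1 match was found in Hsph1 and 2 matches in Hspb1, and no match was found in Hspa4l or Cirbp. Over all 32851 RefSeq promoter windows of this length 12.8% held a match. Of 10 heat shock list genes with a window 7 held one, against 14.5% of all 27025 genes with a window. Capitals mark the matches, on GRCm38.p6 at chr5:149636337-149636586 (Hsph1, minus strand, the upstream one of its starts) and chr5:135887669-135887918 (Hspb1, plus strand).
Hsph1: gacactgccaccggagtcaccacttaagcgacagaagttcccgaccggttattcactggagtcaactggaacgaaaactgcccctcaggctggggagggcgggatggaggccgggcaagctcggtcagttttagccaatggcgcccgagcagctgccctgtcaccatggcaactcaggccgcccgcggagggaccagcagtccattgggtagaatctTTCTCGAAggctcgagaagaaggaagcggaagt
Hspb1: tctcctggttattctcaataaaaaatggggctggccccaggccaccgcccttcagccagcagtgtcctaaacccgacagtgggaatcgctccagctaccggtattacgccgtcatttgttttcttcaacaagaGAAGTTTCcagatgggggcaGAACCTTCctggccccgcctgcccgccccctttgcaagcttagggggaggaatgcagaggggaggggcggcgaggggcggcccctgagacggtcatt

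Acute-phase genes, whose products the liver secretes in inflammation, had a higher estimate in 23 of 24 members, where 49.1% of all genes did, and 8 of them had an unadjusted p under 0.05 on that side, where 2.95% of all genes did. The median log2 difference was 0.19 and 0 were called. In heterozygous livers 24 of 24 members were above 0 (median 0.43, 6 at an unadjusted p under 0.05), in wildtype 14 (median 0.17, 6) and in homozygous livers 17 (median 0.07, 0). Of all genes 1.97%, 4.79% and 1.61% had such a p on the higher side in these genotypes. The orosomucoid gene Orm1 had a lowest, median and highest level of 593, 657 and 964 CPM in the 9000 series and 424, 522 and 694 CPM in the 11000 series (0.39 ± 0.10, SE; edgeR adjusted p = 0.568). The serum amyloid genes Saa1 and Saa2 were at 0.80 ± 0.23 and 0.86 ± 0.25 (SE). Saa1 ran from 97.0 to 353 CPM against 71.1 to 197 CPM, so the 2 series overlapped. The iron-binding lipocalin gene Lcn2 was at 0.79 ± 0.29 (SE). The complement gene C3 was at 0.11 ± 0.17 and the fibrinogen gene Fga at 0.02 ± 0.21 (SE). Orm and Saa genes are also close copies that can share reads.

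Replication-dependent histone genes were higher in all 11 tested members, where 49.1% of all genes were, with a median of 0.39. Of these 5 had an unadjusted p under 0.05, where 2.95% of all genes did on that side, and 0 were called. Within genotypes 6 did in wildtype, 1 in heterozygous and 3 in homozygous livers, where 4.79%, 1.97% and 1.61% of all genes did so. Hist2h3c2 did not overlap between series in any genotype, at 2.86 to 3.40 CPM against 1.65 to 2.25 CPM in wildtype, 3.82 to 5.29 CPM against 1.32 to 3.48 CPM in heterozygous and 4.63 to 5.85 CPM against 1.47 to 4.03 CPM in homozygous livers (0.87 ± 0.18, SE; edgeR adjusted p = 0.276). These messages lack the long poly(A) tail of other mRNAs, and their histone copies share reads. The cell division genes, which such histones accompany in dividing cells, had 0 of 20 members above 0, where 49.1% of all genes were. Their median was -0.24. Ccnb2, a mitotic cyclin gene, was the 1 member at an unadjusted p under 0.05 (-0.57 ± 0.20, SE), where 2.5% of all genes were on that side.

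Markers of the mesothelium, the lining of the liver surface, had higher estimates in the 9000 series. Of 10 members of the adipocyte and mesothelial list 5 were tested. All 5 were above 0, where 49.1% of all genes were. Within genotypes 2 had an unadjusted p under 0.05 in wildtype, 1 in heterozygous and 0 in homozygous livers. Of all genes 4.79%, 1.97% and 1.61% had such a p on the higher side. Across genotypes 4 members did, where 2.95% of all genes did on that side, with 0 called. These were the uroplakin genes Upk3b (1.31 ± 0.50, SE) and Upk1b (1.11 ± 0.46, SE), the transcription factor gene Wt1 (0.65 ± 0.26, SE) and the surface protein gene Msln (1.06 ± 0.51, SE). Upk3b ran from 0.408 to 7.67 CPM in the 9000 series and from 0.205 to 5.94 CPM in the 11000 series, so the ranges largely overlapped. In bulk tissue more cells of a type and more RNA per cell cannot be told apart.

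The other cell type lists had 0 called members. Their members with the lowest p are given with the log2 difference and its standard error. Among hepatocyte markers it was the tyrosine catabolism gene Tat (-0.39 ± 0.25), and for the pericentral and periportal zones Axin2 (-0.47 ± 0.13) and Cdh1 (-0.51 ± 0.18). Macrophage lists were led by the growth factor receptor gene Csf1r (0.24 ± 0.10) for resident Kupffer cells and the chemokine receptor gene Cx3cr1 (0.42 ± 0.23) for lipid-associated macrophages. Lymphocyte lists were led by the natural killer receptor gene Ncr1 (-0.69 ± 0.32) and the B cell factor gene Pou2af1 (-0.57 ± 0.22). For neutrophils and dendritic cells the values were 0.38 ± 0.23 for Csf3r and 0.34 ± 0.18 for Xcr1. Those for stellate, endothelial and bile duct cells were -0.25 ± 0.13 for Ecm1, -0.28 ± 0.16 for Kdr and -0.51 ± 0.20 for Cldn7. Lists of tissues that could be carried over had Cela1 (0.38 ± 0.21) for exocrine pancreas, Vil1 (-0.59 ± 0.27) for gut epithelium, Acta1 (-0.27 ± 0.28) for skeletal muscle, Bpgm (-0.18 ± 0.12) for red cells and Itgb3 (-0.14 ± 0.15) for platelets. In the pancreatic list 2 of 12 genes, Clps and Try5, were at 0 counts in all 21 libraries.

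Metabolic lists also had 0 calls and medians near 0. Members of the list for feeding and lipid synthesis had a median difference of -0.08, with the lowest p at the acetyl-CoA carboxylase gene Acacb (0.54 ± 0.19, SE). For cholesterol synthesis genes the median was -0.09, and the synthase gene Lss was at -0.22 ± 0.18 (SE). Fat oxidation genes had a median of 0.06 with 22 of 26 above 0. Fgf21, a fasting and stress hormone gene in the lists of fat oxidation and of the amino acid response, was at -1.22 ± 0.57 (SE). Its level ran from 4.66 to 27.3 CPM in the 9000 series and from 2.93 to 96.9 CPM in the 11000 series, the highest being homozygous CDAHFD sample 4. Other values were 0.30 ± 0.11 for the lipase gene Lipe, 0.42 ± 0.21 for the bile acid hydroxylase gene Cyp8b1 and 0.30 ± 0.12 for the choline phosphotransferase gene Chpt1. The glycogen-targeting gene Ppp1r3b was at -0.52 ± 0.21, the iron-responsive gene Bmp6 at -0.46 ± 0.18 and the metallothionein gene Mt2 at 0.55 ± 0.38 (SE).

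Clock genes had 10 of 21 members above 0, 0 at an unadjusted p under 0.05, and Cry1 at -0.32 ± 0.18 (SE). Within genotypes 6 were above 0 in wildtype (median -0.28), 15 in heterozygous (0.22) and 13 in homozygous livers (0.19). A difference in the hour of collection was not tested. Stress, immune and housekeeping lists had the following leading members. The stress genes were Atf4 (-0.35 ± 0.12), Gsta4 (-0.39 ± 0.15), Ccng1 (0.12 ± 0.10), Slc2a1 (-0.18 ± 0.09) and the immediate early gene Ccn1 (-0.24 ± 0.15). The immune genes were Il1b (0.54 ± 0.24), Oas1a (0.24 ± 0.10), H2-Oa (-0.50 ± 0.25) and H2-Q2 (-0.81 ± 0.21), and the complement gene C4a (0.46 ± 0.13) led the list of strain-variable genes. The remaining ones were mt-Atp8 (0.12 ± 0.10), Ndufb9 (0.08 ± 0.08), Rps27 (0.50 ± 0.38), the long noncoding RNA Meg3 (0.38 ± 0.19) and Ccnd1 (-0.39 ± 0.15), each with its standard error. Mtarc1 and its paralogue Mtarc2 were at 0.12 ± 0.13 and 0.08 ± 0.08 (SE).

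The 2 series were also compared within each genotype. edgeR called 0 genes (0%) in each genotype. An unadjusted p under 0.05 was reached by 1409 genes in wildtype (7.85%), 787 in heterozygous (4.38%) and 595 in homozygous livers (3.31%). DESeq2 called 17, 3 (Aqp7, Hspb8 and Gm10222) and 6 genes. In wildtype 860 of the 1409 genes were higher in the 9000 series (4.79% of all genes) and 549 lower (3.06%). The shares were 1.97% higher and 2.41% lower in heterozygous livers, and 1.61% higher and 1.7% lower in homozygous livers.

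In wildtype livers the matrix and fibrogenesis list had the highest median of the lists with more than 11 tested members. Shorter lists stood higher. They were the adipocyte and mesothelial (1.57, 5 tested), neutrophil (1.02, 7 tested) and replication-dependent histone lists (0.87, 11 tested). Of its 31 tested members 29 were above 0, where 49% of all genes were. An unadjusted p under 0.05 on the higher side was reached by 21, where 4.79% of all genes reached it. The median log2 difference was 0.77. In heterozygous and homozygous livers the medians of the matrix list were -0.01 and -0.03. Lox, which crosslinks collagen, was at 3.29, 6.44 and 9.18 CPM in the 9000 series and 1.85, 1.41 and 1.77 CPM in the 11000 series (1.91 ± 0.38, SE; edgeR adjusted p = 0.384). The series did not overlap for Lox, a pattern of 13.2% of all genes in wildtype. Col3a1, a fibrillar collagen gene, was at 144, 272 and 335 CPM against 123, 140 and 135 CPM (0.91 ± 0.23, SE). Eln, the elastin gene, was at 17.8, 30.9 and 49.6 CPM against 8.66, 12.5 and 14.4 CPM (1.47 ± 0.33, SE). The contractile genes Tagln (1.00 ± 0.24, SE) and Acta2 (1.44 ± 0.39, SE) and the collagen gene Col1a1 (1.06 ± 0.29, SE) had values on the same side.

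Lipid-associated macrophage genes followed the same pattern in wildtype, with all 18 members above 0, where 49% of all genes were. Of these 10 had an unadjusted p under 0.05, where 4.79% of all genes did on that side. The median was 0.68, against -0.21 in heterozygous and -0.21 in homozygous livers. Ccr2, the receptor that brings monocytes into tissue, was at 8.92, 18.1 and 18.7 CPM against 6.27, 5.94 and 4.87 CPM (1.42 ± 0.33, SE; edgeR adjusted p = 0.384). These did not overlap, a pattern of 13.2% of all genes in wildtype. Trem2, a lipid receptor of these macrophages, was at 8.24, 19.3 and 17.1 CPM against 9.27, 8.40 and 7.16 CPM, which overlap (0.84 ± 0.30, SE). Inflammatory signalling genes were above 0 in 20 of 20 members (median 0.64) and class II antigen presentation genes in 10 of 11 (median 0.57). In heterozygous and homozygous livers their medians were -0.15 and -0.10, and -0.25 and -0.13. On the other side, 0 of 10 hepatocyte markers, 0 of 24 cholesterol synthesis genes and 0 of 26 nuclear genes of oxidative phosphorylation were above 0 in wildtype. Their medians were -0.29, -0.45 and -0.24. In heterozygous livers 9, 20 and 26 of these were above 0 (medians 0.17, 0.18 and 0.14). In homozygous livers 8, 11 and 26 were (medians 0.13, -0.04 and 0.10). Of all genes 49% were above 0 in wildtype, 49% in heterozygous and 49.4% in homozygous livers. How far the share of cell types accounts for the lists that move together was not tested.

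Wildtype CDAHFD samples 2 and 3 had the highest levels of Lox, Col3a1, Eln, Ccr2 and Trem2 among the 6 wildtype libraries. Sample 1 also lay above the wildtype libraries of the other series for these genes, except Trem2. Without sample 2, 21 of 31 matrix genes had an unadjusted p under 0.05 on the higher side (median 0.75). Without sample 3, 17 had (median 0.51). Leaving out both, a choice made after the values were seen, leaves 1 library of the 9000 series. That fit therefore cannot decide what the pattern rests on. The matrix median was then 0.22 and the macrophage median 0.17. The list of p53 and injury genes stayed at 0.51, against 0.49 with all libraries. Lox was then at 0.98, Col3a1 at 0.12 and Ccr2 at 0.66, the remaining library of that series being assumed to vary like the others. Without wildtype CDAHFD sample 1, the third library of the 9000 series, edgeR called 3 genes, Lox, Col3a1 and the membrane protein gene Tmem119 (edgeR adjusted p = 0.0472 each).

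**Figure D3:**
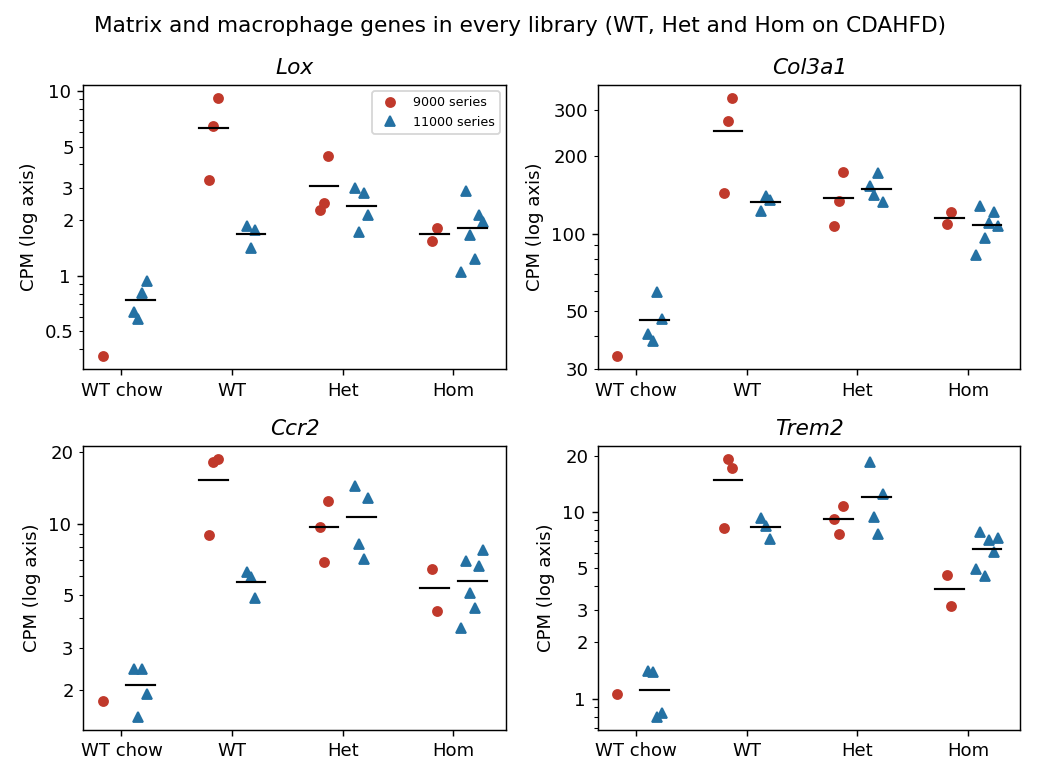
Level in CPM (log axes) of the matrix genes Lox and Col3a1 and the macrophage genes Ccr2 and Trem2 in each library, with red circles for the 9000 series, blue triangles for the 11000 series and black lines for group means. In wildtype CDAHFD livers 2 of the 3 red points stand above all others of that genotype in each panel, and in the other 2 genotypes the series overlap.

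**Figure D4:**
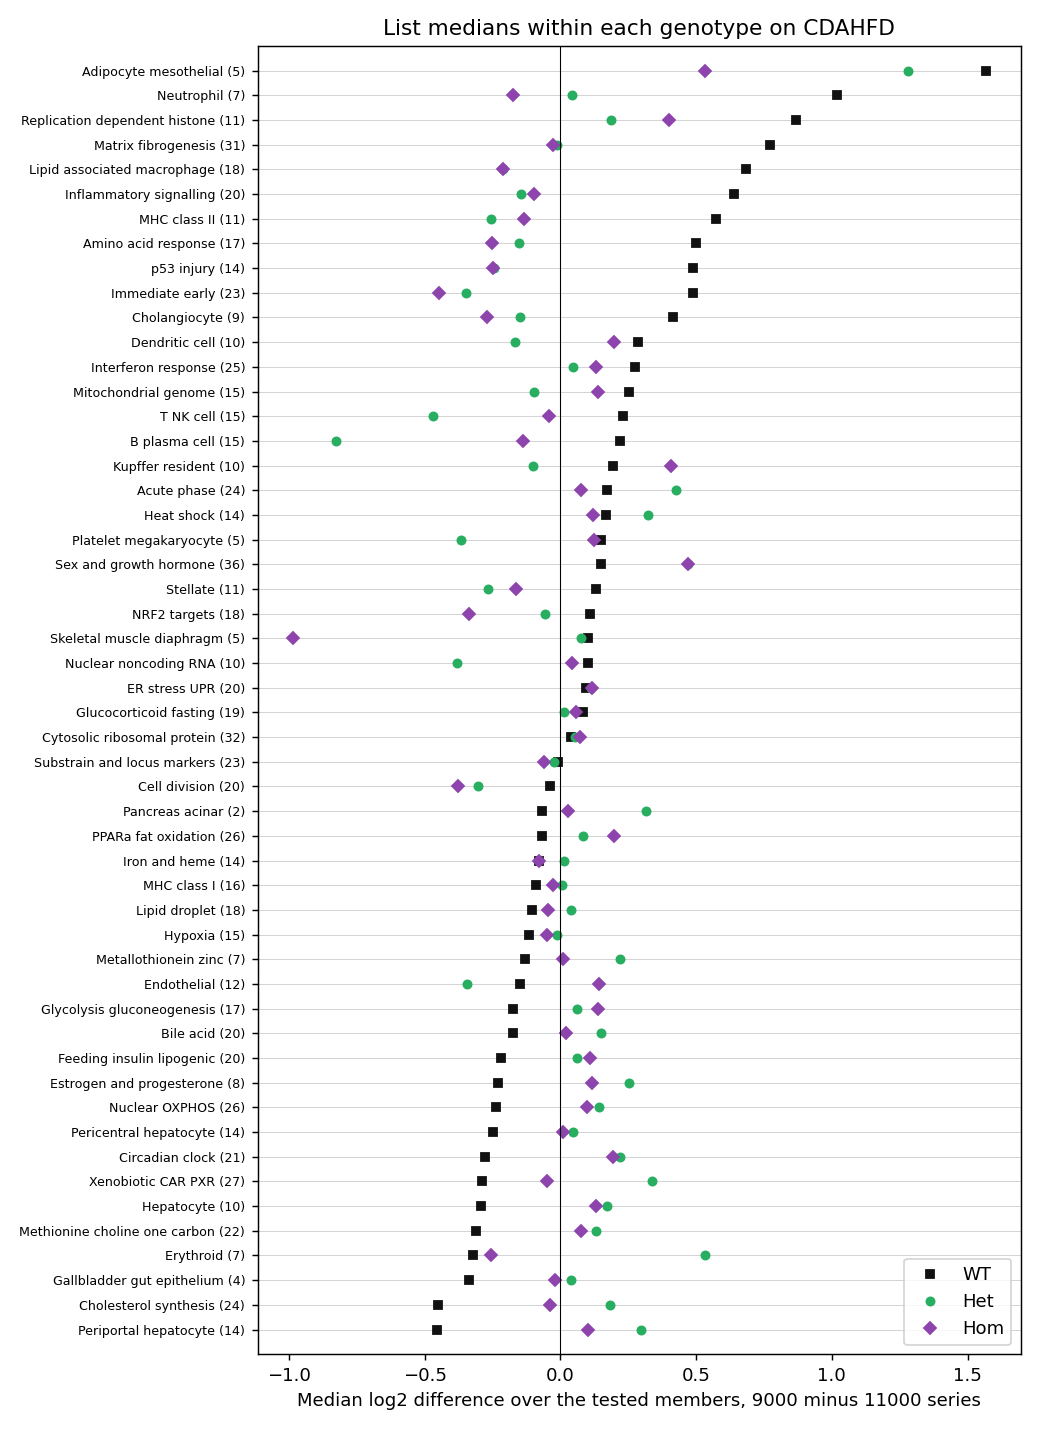
Median log2 difference between the series (9000 minus 11000; horizontal axis) over the tested members of each of the 52 gene lists, with the number of tested members in brackets, for wildtype (squares), heterozygous (circles) and homozygous (diamonds) livers on CDAHFD. Lists are ordered by the wildtype median. Matrix genes stand at 0.77 in wildtype and near 0 in the other genotypes, and the growth hormone and heat shock lists stand above 0 in all 3.

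In homozygous livers 5 of the 6 genes that DESeq2 called are known from myeloid cells, the other being Slc51b, and homozygous CDAHFD sample 2 had the highest level of all 5 among the homozygous libraries. Marco, a scavenger receptor gene of macrophages, was at 21.8 and 105 CPM in the 9000 series and between 12.7 and 25.98 CPM in the 11000 series, so the 105 CPM of sample 2 stood apart while sample 1 lay within the other range. It was also above every other CDAHFD library, the next being at 38.9 CPM. The sialic acid receptor gene Siglece was at 6.52 and 21.4 CPM against 3.11 to 5.74 CPM (1.62 ± 0.33, SE; edgeR adjusted p = 0.510), and the formyl peptide receptor gene Fpr1 at 4.80 and 10.3 CPM against 1.60 to 3.14 CPM (1.73 ± 0.32, SE; edgeR adjusted p = 0.510). For Siglece and Fpr1, as for Cd300e, Clec4a1 and Adgre4, sample 1 also lay above every homozygous library of the 11000 series. No overlap in homozygous livers, in either direction, was a pattern of 4.5% of all genes. Without sample 2 the log2 difference in homozygous livers was 0.25 for Marco, 0.52 for Siglece and 1.07 for Fpr1, against 1.80, 1.62 and 1.73 with it. DESeq2 called Marco, Siglece, Fpr1, Adgre4, Cd300e and Slc51b. Without sample 1 edgeR called 6 genes, Marco, Siglece, Fpr1, Cd300e, Clec4a1 and Adgre4, with sample 2 as the lone library of its group, assumed to vary like the other groups. Without heterozygous CDAHFD sample 5 it called 1 gene, Xlr4a. Resident macrophage markers, a list that holds Marco, had a median of 0.41 in homozygous livers with sample 2 included. All 10 members were above 0 there, where 49.4% of all genes were. In heterozygous livers 2 of 10 were above 0 (median -0.10) and in wildtype 9 (median 0.19).

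The test of the difference between genotypes called 0 genes (0%), with 931 at an unadjusted p under 0.05 (5.19%) by edgeR and 1 call by DESeq2. For heterozygous minus wildtype 1644 genes reached that threshold (9.16%), and for homozygous minus wildtype 886 (4.94%). Of 31 matrix genes 17 were among the 931, and of 18 macrophage genes 8. Lox had an unadjusted edgeR interaction p of 0.00334, with an adjusted value of 0.923. The DESeq2 call was Pdk4, a kinase that spares glucose in fasting. It was at 22.6, 31.3 and 17.01 CPM against 6.81, 5.15 and 10.5 CPM in wildtype and at 4.08 and 5.01 CPM against 2.97 to 15.97 CPM in homozygous livers. By edgeR its difference was 1.65 ± 0.46 in wildtype, -1.19 in heterozygous and -1.30 ± 0.50 in homozygous livers (SE), with an adjusted interaction p of 0.896. The lowest interaction p-values belonged to Ttc9, which is under 1 CPM in all CDAHFD libraries, and to the predicted gene Gm37795 (edgeR adjusted p = 0.896 for both). Gm37795 was at 9.78, 11.99 and 7.02 CPM against 3.69, 5.82 and 2.98 CPM in wildtype and at 3.99, 3.86 and 3.33 CPM against 10.96, 6.00, 6.13 and 6.19 CPM in heterozygous livers, with no overlap in either genotype and opposite directions. In either direction, no overlap was a pattern of 13.2% of all genes in wildtype and 4.74% in heterozygous livers.

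The chow livers hold both number series but only 1 library of the 9000 series, so they allow no test. Of the 12 genes with the lowest p in CDAHFD livers, 3 lay on the same side of the mean of the 4 other chow libraries as in CDAHFD livers. These were Mup12 (11.3 CPM against 2.50 to 12.5 CPM), Slc51b (1.19 CPM against 0.373 to 2.75 CPM) and Zfp618 (2.48 CPM against 2.68 to 4.96 CPM), of which Zfp618 lay outside the range. Adamts7 (24.98 CPM against 7.21 to 21.4 CPM) and Trpm6 (1.15 CPM against 0.781 to 1.01 CPM) lay above the other chow livers, which is the opposite side. Hsph1 was at 31.0 CPM against 41.0 to 47.7 CPM, also the opposite side.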

How the data were processed

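Liver RNA was purified on spin columns and made into libraries with a New England Biolabs kit, per the labels' protocols. The deposited table holds estimated counts per gene in 26 libraries for 55642 Ensembl gene IDs. Tools named in the submitters' processing notes are cutadapt 3.5 and Salmon 1.4.0, and the builds named there are GRCm39 and mm39. Strand settings are not given in the sources used here. Symbols came from a gene name table given with the reference and matched 51475 IDs (92.5%), and unmatched IDs held 0.337% to 2.31% of counts. No column was left unused (0).

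Estimated counts were rounded. Genes were filtered with filterByExpr on the genotype-by-series groups, scaled by TMM and fitted with edgeR 4.0.16 (robust quasi-likelihood; genotype and series), with Benjamini-Hochberg adjustment over all genes and a threshold of 0.05. A model with 1 mean for each genotype-by-series group gave the values within genotypes and the interaction. CPM use TMM-scaled library sizes. DESeq2 1.42.0 and limma 3.58.1 (voom) in R 4.3.3 were alternatives. The scripts were tested on simulated data. The biological coefficient of variation was 21.9%. Replicates of a group differed by more than sampling noise, with a chi-square over its degrees of freedom of 22.6 or more in each of 31 pairs.

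The libraries, 52 gene lists and 12 lowest p genes were chosen with earlier results of these data known. Named genes were Mtarc1, Mtarc2, the member of each list with the lowest p (none being called), and the 2 genes with the lowest interaction p; the rest were added after their values were seen. Promoter sequences are from RefSeq (GRCm38.p6). Of 25174 RefSeq windows whose gene has a transcript, the bases after the start were found in a transcript in the direction given for 18270 and in the reverse for 0.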

Additional observations from a re-analysis of the deposited data

Results flagged for a closer look

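Levels of the named genes and 4 library measures were compared within each genotype on CDAHFD by the gap between the highest or lowest library and its nearest neighbour, as a share of the group's range. In all 40 of 357 sets of values passed the 95% critical value of Dixon's test, run on CPM without logarithms. Chance passes about 1 in 20 of normally spread sets that were not selected. Many of these genes were chosen after their values in these libraries were seen, so that share is no yardstick for them. Genes of one family or cell type also do not vary independently. In each case below the library is the one that stood apart, and values are CPM unless stated. Heterozygous sample 1 was highest for Mup12 (5.78), Gm16348 (6.96), Orm3 (23) and Fgl1 (1091). Heterozygous sample 2 was highest for Xcr1 (1.16). Heterozygous sample 4 was highest for Csf3r (13.9), Gm37795 (11) and Slc51b (6.03). Heterozygous sample 4 was lowest for Alb (41390). Heterozygous sample 5 was highest for Lss (78.2). Heterozygous sample 6 was highest for Itgb3 (8.48). Homozygous sample 1 was highest for Oas1a (17.2), Gm16348 (6.34), Cux2 (128), Hsp90aa1 (462), Hist1h4h (4.67), Hist1h2be (3.13) and Gm44787 (6.53). Homozygous sample 2 was highest for Marco (105), Siglece (21.4), Fpr1 (10.3), Cd300e (7.63), Clec4a1 (8.06) and Adgre4 (16.1). Homozygous sample 4 was highest for Acta1 (4.24), Fgf21 (96.9), H2-Oa (0.741) and Gm37795 (8.15). Homozygous sample 8 was highest for Lcn2 (186), Gpnmb (17.6), Clec7a (22.2) and Mmp12 (33.9). Wildtype sample 1 was highest for Fgl1 (909). Wildtype sample 2 was highest for the number of genes with at least 10 counts (16952). Wildtype sample 3 was highest for Saa1 (353), Saa2 (274) and Clec7a (60.7). Wildtype sample 4 was lowest for Mup13 (1.04) and Mup3 (921). Wildtype sample 6 was highest for Bcl6 (42.9).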

How the results depend on the processing

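In the comparison across genotypes, calls by edgeR (or voom where named) numbered 0 with RLE, upper-quartile or no scaling, voom, no low-count filter, a minimum mean of 1 CPM, no genotype term, chow as a further group, and library total or mitochondrial share as a covariate. They also numbered 0 without libraries 11142 and 11143 and with numbers 11063 to 11075 alone. DESeq2 called 16 genes (9 higher, 7 lower) and leaving out 11001 and 11002 gave 2, both higher. Leaving out 1 library at a time gave 0 to 1 calls (0 higher, 0 to 1 lower), the 1 being without wildtype sample 5. The cause of these differences was not tested. Without scaling factors the split at an unadjusted p under 0.05 was 294 higher and 720 lower, against 529 and 449, with a median of all genes of -0.05.

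Within genotypes DESeq2 called 17 genes in wildtype, 3 in heterozygous and 6 in homozygous livers, and for the interaction 1, with 13 for heterozygous minus wildtype and 1 for homozygous minus wildtype. Leaving out 1 library gave 0 to 3 calls in wildtype (3 without wildtype sample 1) and 0 to 6 in homozygous livers (6 without homozygous sample 1, 1 without heterozygous sample 5). The within-genotype difference in total counts ran from -0.246 to 0.571 (in units of 1000000 counts) and that in mitochondrial share from -0.155 to 0.616 percentage points when 1 library was left out, so their signs are not settled.

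Sample numbers recur across genotypes. With the sample number as a replicate block the series term rests on number 3 alone, where the genotypes fall in different series. There the homozygous sample, library 11001, is the only one of the 11000 series, so this fit cannot decide how the other libraries of that series compare. That fit called 0 genes, with 774 at an unadjusted p under 0.05, and 41 of 104 named genes had the opposite sign. The Mup differences were among those that shrank or turned, Mup12 from 1.62 to 0.22, Mup13 from 1.10 to -0.02 and Mup1 from 1.32 to -0.36, while Trpm6 went from -1.24 to -1.11. Library 11001 had the highest Mup share of the CDAHFD libraries of the 11000 series (2.10%). Over 19 same-numbered pairs the median correlation of deviations was 0.156 (-0.505 to 0.421), with 11 over 0.1, and over 127 other pairs it was -0.0141. Since the labels give the numbers no meaning and not every pair was over 0.1, the numbers were not taken to pair the samples, and a shared source of same-numbered samples was not tested.

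Total counts of 19.7 to 29.9 in the same unit leave genes under 1 CPM, such as Trpm6, with few counts per library. With 2 libraries of the 9000 series in homozygous livers, 1 library decides a value there. The labels do not say what the numbers stand for.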
